A study of Mus musculus with 24 samples.

Results

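The 8 of 24 mouse tumours with the highest expression of a small set of mitotic genes, called fast-cycling here, were set against the 8 with the lowest, called slow-cycling. The series holds bulk tumours of pancreatic ductal adenocarcinoma (PDAC), the common cancer of the exocrine pancreas, profiled on Clariom S arrays, which read 1 summary value for each of 22206 probe sets. There were 6 tumours in each of 4 groups: BMS754807 (a small-molecule inhibitor of the IGF1 and insulin receptors), hydroxychloroquine (a lysosome-targeting drug used to block autophagy), the combination of both agents, and a control given what the labels call vector. The labels give no strain, genotype, age, dose, duration or tumour cell source for any group, and do not say whether tumours of a group came from separate animals. The p-values below therefore measure the spread between these tumours. The ductal keratin gene Krt19 ran between 15.24 and 15.94 in fast-cycling and between 15.15 and 15.51 in slow-cycling tumours, on the log2 signal scale used throughout.

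A dividing cell copies its DNA in S phase and then builds a spindle, captures chromosomes at their kinetochores and splits in mitosis. Genes for replication are switched on mainly by E2F factors at the G1/S boundary. Genes for mitosis are switched on later, in G2, by the MuvB complex with B-MYB and FOXM1. Transcripts of the later group fall after division, and their level in a bulk tumour is widely used as a proxy for the share of dividing cells. In a bulk sample, fewer dividing cells and less mitotic RNA per cell cannot be told apart.

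Tumours were chosen by a score, the mean of the centred log2 signals of mitotic genes on these same arrays. The rule named 8 genes, and 7 had a probe set that the annotation used here names: Mki67, Top2a, Cdk1, Plk1, Bub1, Kif11 and Prc1. No probe set is named for Ccnb1 in it, so the score rests on 7. The fast-cycling tumours scored between 0.19 and 0.42, and the slow-cycling ones between -0.72 and -0.12. The boundary on the fast side was narrow: the last tumour inside was BMS754807 tumour 1 at 0.191 and the first outside was control tumour 4 at 0.182. On the slow side, combination tumour 4 was inside at -0.119 and control tumour 1 outside at -0.086. The lowest score of all belonged to control tumour 6, at -0.715, under the next, hydroxychloroquine tumour 6 at -0.412.

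**Figure D1:**
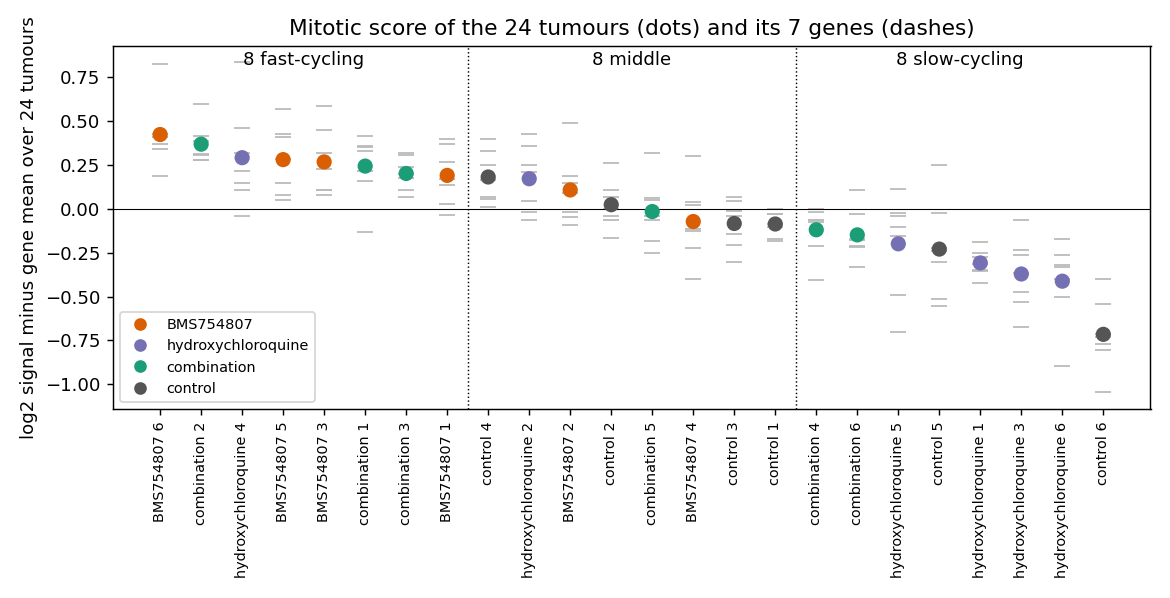
The mitotic score of each of the 24 tumours (dots, coloured by treatment) and the 7 genes behind it (grey dashes), in log2 signal minus the gene's mean over 24 tumours, ordered from highest to lowest. Dotted lines bound the 8 fast-cycling, 8 middle and 8 slow-cycling tumours; the scores fall in a continuous series with no gap at the upper line (0.191 against 0.182).

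Each score gene was higher on average in the fast-cycling class, as the rule requires, and these values are a description only. Mki67, the nuclear proliferation antigen Ki-67, ran from 15.29 through a median of 15.36 to 15.55 in fast-cycling tumours, against 14.41, 14.94 and 15.00 in slow-cycling ones. Top2a, the topoisomerase that untangles sister chromatids, ran between 12.39 and 12.77 in fast-cycling tumours, against 11.58 and 12.42 in slow-cycling ones. Plk1, a kinase needed for spindle assembly and mitotic exit, showed the largest mean gap, with 12.47 ± 0.32 in fast-cycling against 11.71 ± 0.40 in slow-cycling tumours (SD, n = 8 each). The spindle motor Kif11 averaged 13.19 ± 0.08 in fast-cycling tumours, against 12.57 ± 0.17 in slow-cycling ones. The midzone protein gene Prc1 averaged 10.60 ± 0.20 in fast-cycling and 9.88 ± 0.26 in slow-cycling tumours. Cdk1, the mitotic kinase, averaged 10.82 ± 0.13 in fast-cycling and 10.33 ± 0.28 in slow-cycling tumours, and the checkpoint kinase Bub1 11.07 ± 0.26 in fast-cycling and 10.56 ± 0.22 in slow-cycling tumours. The classes overlapped for Top2a, Cdk1, Plk1 and Bub1, and did not overlap for Mki67, Kif11 and Prc1. The gaps were modest, from 0.48 (Cdk1) to 0.76 (Plk1) on the log2 scale.

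The 2 classes were unevenly spread over the treatments. Fast-cycling tumours were 4 given BMS754807, 1 given hydroxychloroquine, 3 given the combination and 0 controls. Slow-cycling tumours were 0 given BMS754807, 4 given hydroxychloroquine, 2 given the combination and 2 controls. By treatment, the score averaged 0.20 ± 0.17 with BMS754807, -0.14 ± 0.30 with hydroxychloroquine, 0.09 ± 0.21 with the combination and -0.15 ± 0.31 in controls (SD, n = 6 each). Since the model holds treatment, a fast against slow difference can come only from treatments that hold both classes. The combination tumours (3 fast, 2 slow) carried 60% of its weight and the hydroxychloroquine tumours (1 fast, 4 slow) 40%, which on the fast side rests wholly on hydroxychloroquine tumour 4. The BMS754807 and control tumours served only to estimate the spread. Without hydroxychloroquine tumour 4 only combination tumours hold both classes, so each difference given within combination tumours is also the value without that tumour.

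With that model no gene passed. limma with Benjamini-Hochberg adjustment over 19498 genes called 0 genes (0% of those tested) at an adjusted p under 0.05. In a fit of all 24 tumours with the middle 8 as a class of their own, the smallest adjusted p was 0.0899. In the model of 16 tumours it was 0.598. At an unadjusted p under 0.05, 682 genes were higher in fast-cycling tumours (3.5% of those tested) and 458 lower (2.35%), 1140 in all (5.85%). Without hydroxychloroquine tumour 4 this total was 558. A second fit used the score itself as a continuous measure over all 24 tumours, again with treatment in the model. It called 48 genes that rose with the score (0.246% of those tested) and 14 that fell with it (0.0718%). Of these 62 genes, all 62 had the same sign of difference in the class comparison, and 48 had an unadjusted p under 0.05 there. The 2 fits share their tumours, so this agreement is not independent. The count of genes called with the continuous score leaned on single tumours. It was 16 (16 rising, 0 falling) without control tumour 6, the lowest scorer, 18 without hydroxychloroquine tumour 4, 37 and 40 without combination tumours 1 and 2, and 41 without each of BMS754807 tumour 4, combination tumour 6 and hydroxychloroquine tumour 3. All 62 genes kept their sign and an unadjusted p under 0.05 whichever tumour was left out. They were chosen by a small p on these same tumours, so this outcome was largely set in advance and does not measure stability. In all 24 fits that left out 1 tumour, 8 genes stayed called: Nusap1, Kif20a, Ckap2l, Cenpa, Ska3, Bub1b, Dlgap5 and Cit. Left without a treatment term, the continuous fit called 139 genes (0.713%) and the class comparison 12 (0.0615%). The slopes below are in log2 signal per 1 unit of score, which is a little less than the full distance between the highest and the lowest tumour. The score and the tested genes were read from the same arrays, so these calls describe which genes moved together over these tumours. The score was a chosen outcome and not an independent label.

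Spindle, centrosome and kinesin genes followed the score most closely. All 28 measured genes of the list were higher in fast-cycling tumours after adjustment for treatment, with a median difference of 0.50, against a median of 0.00 over all genes tested, of which 50.7% were above 0. In this list 21 genes had an unadjusted p under 0.05, all higher (3.5% over all genes tested), and 13 rose with the continuous score (0.246%). Nusap1, which bundles spindle microtubules around chromosomes, had the smallest p of all genes in the continuous fit. Its signal was 12.35, 12.47 and 12.73 (lowest, median and highest) in fast-cycling tumours, against 11.30, 11.97 and 12.26 in slow-cycling ones, with no overlap. It rose by 1.18 ± 0.13 (SE) per unit of score (adjusted p = 0.00014).

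Kif20a, a kinesin of the central spindle required for cytokinesis, also separated the classes fully, at 11.74, 11.98 and 12.26 in fast-cycling tumours, against 10.92, 11.11 and 11.64 in slow-cycling ones. Its slope was 1.30 ± 0.20 (adjusted p = 0.0058), and its treatment-adjusted difference between classes was 0.78 ± 0.17. The kinesin Kif2c, which removes faulty microtubule attachments, rose by 1.53 ± 0.24 per unit (adjusted p = 0.0060), and Ckap2l, a spindle-pole protein gene, by 1.13 ± 0.17 (adjusted p = 0.0052). Hmmr, which helps orient the spindle, ranged between 10.34 and 11.01 in fast-cycling and between 9.50 and 10.12 in slow-cycling tumours and rose by 1.04 ± 0.20 per unit. Kif18a, a kinesin that damps chromosome movement, had one of the larger class differences, 0.80 ± 0.18, but its slope did not pass (adjusted p = 0.159) and its classes overlapped.

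Kinetochore and centromere genes came next. Of 31 measured, 30 were higher in fast-cycling tumours, with a median difference of 0.44. In this list 15 had an unadjusted p under 0.05, all higher (3.5% over all genes tested), and 5 rose with the continuous score (0.246%). Cenpa encodes the histone H3 variant that marks centromeres. Its signal was 12.51, 12.76 and 13.10 in fast-cycling tumours, against 11.84, 12.12 and 12.42 in slow-cycling ones, without overlap, and its slope was 1.04 ± 0.16 (adjusted p = 0.0058). Ska3, part of the complex that holds kinetochores on depolymerising microtubules, rose by 1.46 ± 0.23 (adjusted p = 0.0058), and Aurkb, the kinase of the chromosomal passenger complex, by 1.45 ± 0.25 (adjusted p = 0.0098). Both had overlapping classes. Sgo1, the guardian of centromeric cohesion, and Nuf2, of the microtubule-binding NDC80 complex, had fully separate classes (for Sgo1, 10.35 to 10.79 in fast-cycling and 9.41 to 10.17 in slow-cycling tumours). Their slopes of 0.80 and 0.86 missed the threshold (adjusted p = 0.0900 and 0.0671). The centromere gene Cenpu had a class difference of 0.87 ± 0.23, but its classes overlapped and its slope did not pass (adjusted p = 0.283).

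Among mitotic cyclins, checkpoint genes and parts of the anaphase-promoting complex (APC/C), 22 of 25 measured were higher, with a median difference of 0.39. Of the 25, 12 had an unadjusted p under 0.05, all higher (3.5% over all genes tested), and 7 rose with the score (0.246%). Ube2c, the ubiquitin-conjugating enzyme of the APC/C, rose by 1.34 ± 0.22 per unit (adjusted p = 0.0060). Bub1b, the checkpoint protein BubR1, was 11.47, 11.61 and 11.78 in fast-cycling tumours, against 10.75, 11.11 and 11.25 in slow-cycling ones, with no overlap and a slope of 0.87 ± 0.14 (adjusted p = 0.0083). Ccnb2, a B-type cyclin, rose by 1.00 ± 0.18 (adjusted p = 0.0123). Mastl, the Greatwall kinase, and Cdc20, the APC/C activator, did not pass in the continuous fit (adjusted p = 0.0703 and 0.0883), with class differences of 0.69 ± 0.19 and 0.56 ± 0.17.

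Condensin, cohesin and chromosome structure genes were split. In this list 17 of 20 were higher, but the median difference was 0.18, smaller than in the preceding lists. Of the 20, 6 had an unadjusted p under 0.05, all higher (3.5% over all genes tested), and 3 rose with the score (0.246%). Those with the smallest class p-values were all condensin subunits, which compact mitotic chromosomes. Ncaph ran at 9.94, 10.26 and 10.58 in fast-cycling tumours, against 9.31, 9.51 and 9.82 in slow-cycling ones, with a slope of 1.03 ± 0.21 (adjusted p = 0.0362). Ncapg and Ncapd3 had class differences of 0.50 ± 0.16 and 0.45 ± 0.16, and their slopes did not pass (adjusted p = 0.0524 and 0.0620).

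**Figure D2:**
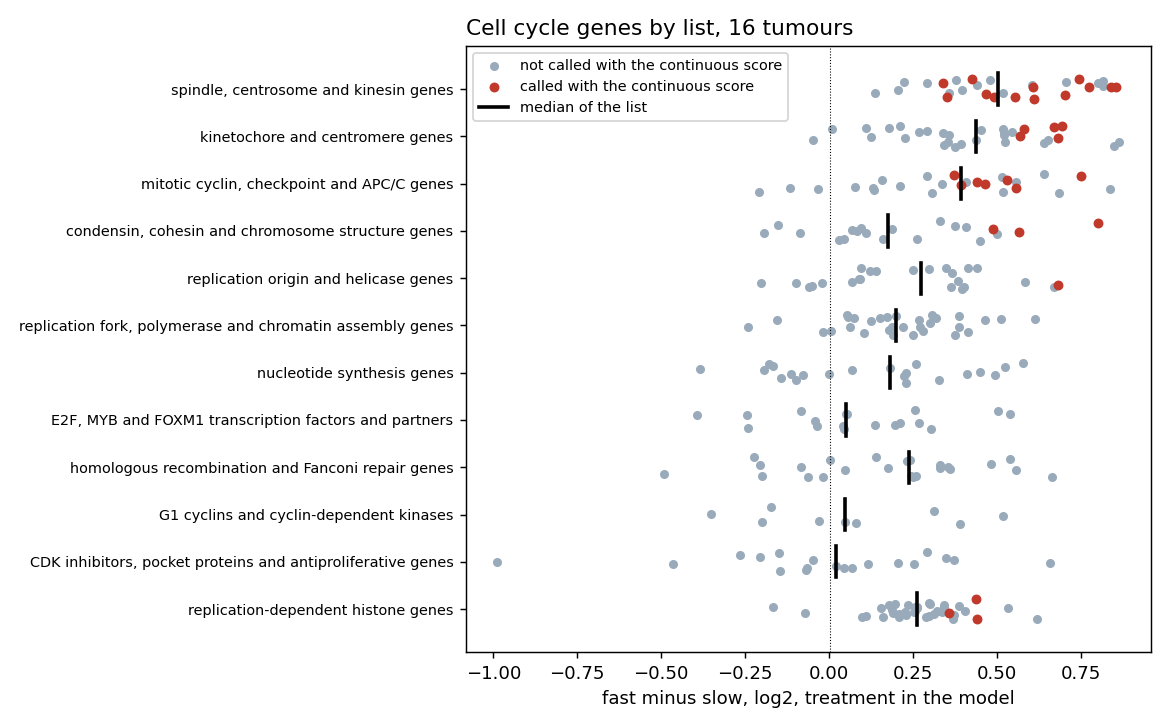
Each dot is 1 gene of a cell cycle list, placed by its treatment-adjusted difference between 8 fast-cycling and 8 slow-cycling tumours in log2 signal. Black bars are list medians and red dots are genes called with the continuous score; medians run from 0.50 for the spindle list to 0.02 for the CDK inhibitor list.

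The 4 mitotic lists hold 104 measured genes, and 28 of the 48 genes that rose with the score were among them. These lists were chosen with results of these data known, and a mitotic score picks the tumours, so the counts describe how far the score's own programme extends. The mean centred signal of each list gives the same view by tumour. The spindle score ran from 0.16 to 0.37 in fast-cycling tumours, against -0.55 to -0.15 in slow-cycling ones. Of the 8 tumours with the highest spindle score 7 were fast-cycling, and the 8 with the lowest were the 8 slow-cycling ones. For the condensin list only 4 of the top 8 tumours were fast-cycling, while all 8 of the bottom 8 were slow-cycling.

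Promoter sequence is shown for 4 genes that rose with the score and whose classes did not overlap, because MuvB-regulated mitotic genes are known for a pair of short elements: the CHR (cell cycle genes homology region), searched as TTTGAA, and CCAAT boxes, bound by NF-Y. The sequences are from RefSeq (mouse build GRCm38.p6), 300 bases each that reach just past the gene's start, all on the plus strand. Capitals mark a CHR or a CCAAT box on either strand, so that ATTGG is a CCAAT box read from the other strand. Cenpa lies at chr5:30666636-30666935, Bub1b at chr2:118597961-118598260, Nusap1 at chr2:119618048-119618347 and Melk, a mitotic kinase gene, at chr4:44300667-44300966.
Cenpa: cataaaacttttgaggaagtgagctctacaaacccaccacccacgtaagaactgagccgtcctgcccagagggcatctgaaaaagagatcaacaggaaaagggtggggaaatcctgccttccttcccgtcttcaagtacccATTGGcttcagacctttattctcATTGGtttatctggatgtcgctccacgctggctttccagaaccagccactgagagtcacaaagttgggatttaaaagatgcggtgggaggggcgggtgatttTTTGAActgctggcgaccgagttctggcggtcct
Bub1b: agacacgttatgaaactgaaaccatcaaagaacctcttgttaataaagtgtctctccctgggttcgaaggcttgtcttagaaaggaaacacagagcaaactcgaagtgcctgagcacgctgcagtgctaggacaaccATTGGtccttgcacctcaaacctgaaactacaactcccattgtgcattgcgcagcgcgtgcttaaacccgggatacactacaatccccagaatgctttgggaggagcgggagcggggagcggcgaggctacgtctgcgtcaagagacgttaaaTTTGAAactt
Nusap1: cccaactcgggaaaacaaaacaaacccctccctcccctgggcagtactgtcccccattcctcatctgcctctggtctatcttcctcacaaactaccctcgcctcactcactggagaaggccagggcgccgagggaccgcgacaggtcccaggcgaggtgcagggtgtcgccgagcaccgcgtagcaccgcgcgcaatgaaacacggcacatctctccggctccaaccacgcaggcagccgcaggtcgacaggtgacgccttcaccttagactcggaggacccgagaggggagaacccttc
Melk: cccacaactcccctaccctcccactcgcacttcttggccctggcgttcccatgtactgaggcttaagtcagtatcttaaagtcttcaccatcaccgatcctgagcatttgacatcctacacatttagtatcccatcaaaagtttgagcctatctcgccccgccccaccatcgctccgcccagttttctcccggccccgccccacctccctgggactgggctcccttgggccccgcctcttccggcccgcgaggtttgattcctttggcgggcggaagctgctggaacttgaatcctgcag

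Cenpa holds 2 CCAAT boxes and 1 CHR in this window and Bub1b holds 1 of each; in both the CHR lies close to the start of the gene. Nusap1 and Melk hold neither, in these letters and this window. Over the 41 of 48 genes that rose with the score and have a promoter in the table, 56.1% hold a CHR and 53.7% a CCAAT box, and 39.0% hold both. Over the 15684 tested genes with a promoter these shares are 15.8%, 38.8% and 6.5%. The 86 promoters of the 4 mitotic lists hold a CHR in 54.7% and a CCAAT box in 69.8%. Of the 44 promoters of replication origin and fork genes, 59.1% hold a CCAAT box, nearer the mitotic lists than all genes, and 18.2% hold a CHR. An E2F site (TTCGCGC or TTGGCGC, both strands) is in 27.3% of them, against 14.0% in the mitotic lists and 5.3% over all genes. An E2F site TTGGCGC can share bases with a CCAAT box read from the other strand. The 10 promoters of the 14 genes that fell with the score hold a CHR in 1 case. A match of letters is a description of these windows and not a measured site.

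Replication genes moved in the same direction, with list medians smaller than those of the spindle, kinetochore and checkpoint lists. Both medians were larger than the 0.18 of the condensin list. Within combination tumours the origin and helicase median, 0.34, was also above the 0.30 of the checkpoint list. Of 24 origin and helicase genes, 19 were higher in fast-cycling tumours, with a median difference of 0.28. Of the 24, 5 had an unadjusted p under 0.05, all higher (3.5% over all genes tested), and 1, Ticrr, rose with the score (0.246%). Ticrr, which acts in the start of replication at origins, was 9.45, 9.67 and 10.27 in fast-cycling tumours, against 8.74, 8.95 and 9.43 in slow-cycling ones. Its slope was 1.16 ± 0.24 (adjusted p = 0.0366). The licensing inhibitor gene Gmnn and the helicase cofactor gene Cdc45 had class differences of 0.59 ± 0.20 and 0.44 ± 0.18 and overlapping classes. Of 31 replication fork, polymerase and chromatin assembly genes, 28 were higher, with a median of 0.20, but 0 rose with the score. Only 1 gene of the 31 had an unadjusted p under 0.05, higher, near the 3.5% over all genes tested. That gene was Uhrf1, which keeps DNA methylation in place after replication, with a difference of 0.62 ± 0.26. Pole and Rfc5, of the leading-strand polymerase and the clamp loader, differed by 0.42 ± 0.20 and 0.39 ± 0.19.

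Nucleotide synthesis genes were mixed: 13 of 21 were higher in fast-cycling tumours, the median difference was 0.18 and the median slope was -0.06. The median difference was 0.145 in combination and -0.175 in hydroxychloroquine tumours, and -0.04 without combination tumour 4. Rrm2, the S-phase subunit of ribonucleotide reductase, was 12.56, 12.87 and 13.17 in fast-cycling tumours, against 11.68, 12.35 and 12.74 in slow-cycling ones, with a difference of 0.52 ± 0.23 and a slope that did not pass (adjusted p = 0.103). Tk1 and Dck, which salvage nucleosides, differed by 0.50 ± 0.18 and 0.58 ± 0.25. Homologous recombination and Fanconi repair genes were higher for 17 of 24, with a median of 0.24, and 0 passed in the continuous fit. That median was 0.26 in combination and -0.07 in hydroxychloroquine tumours, and 0.05 without combination tumour 4. Fanci, of the Fanconi complex clamped on damaged DNA, did not overlap between the classes (7.86 to 8.40 in fast-cycling and 6.37 to 7.80 in slow-cycling tumours), and the helicase gene Blm differed by 0.54 ± 0.16. The nuclease gene Mus81 went the other way, with a difference of -0.49 ± 0.13.

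Replication-dependent histone genes, whose transcripts are made in S phase, were higher in fast-cycling tumours for 36 of 38, with a median difference of 0.26. All 38 had a positive slope, and 3 rose with the score (0.246% over all genes tested). In the class comparison 1 had an unadjusted p under 0.05, higher (3.5% over all genes tested). H1f1, a linker histone gene, was 12.29, 12.74 and 13.22 in fast-cycling tumours, against 11.59, 12.16 and 12.54 in slow-cycling ones, and rose by 1.30 ± 0.22 per unit (adjusted p = 0.0100). H3c3 rose by 1.03 ± 0.21 (adjusted p = 0.0312). These genes are near-identical copies of one another, so probe sets may share signal. Within treatments the list's median was 0.08 in combination tumours and 0.56 in hydroxychloroquine tumours.

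Among the regulators of entry into the cycle 0 were called with the continuous score. The list of E2F, MYB and FOXM1 factors and partners had 12 of 18 measured genes higher and a median of 0.05. No probe set of Foxm1 itself is named in the annotation used here. E2f7, an E2F repressor, differed by 0.54 ± 0.24 and Mybl1, encoding A-MYB, by -0.39 ± 0.17, and neither passed in the continuous fit. Of 9 measured G1 cyclins and cyclin-dependent kinases, 5 were higher, with a median of 0.05. Cdk2 differed by 0.52 ± 0.18 and Ccne2, its cyclin partner, by 0.39 ± 0.17, while Ccng1, a p53-induced cyclin, differed by -0.35 ± 0.13. Ccnd1 has no named probe set either.

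CDK inhibitors, pocket proteins and antiproliferative genes sat at the level of the whole array: 10 of 19 were higher, the median difference was 0.02, and 0 had an unadjusted p under 0.05. Cdkn1a, encoding the inhibitor p21, was 9.83, 10.65 and 11.40 in fast-cycling tumours, against 9.60, 10.38 and 11.53 in slow-cycling ones (difference 0.66 ± 0.36). Cdkn1b, encoding p27, differed by 0.07 ± 0.16, and Cdkn2b, encoding p15, by -0.47 ± 0.29 (-0.18 within combination tumours). Cdkn2a, the Ink4a/Arf locus often lost in pancreatic cancer, was 3.93, 5.59 and 7.32 in fast-cycling tumours, against 5.42, 6.77 and 8.07 in slow-cycling ones, and differed by -0.99 ± 0.70. The value for Cdkn2a rested on 1 tumour: without hydroxychloroquine tumour 4 it was 0.06.

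In the class comparison, the 5 genes with the smallest p on the higher side were Shcbp1, Rwdd2b, Hoxc4, Depdc1a and Hlx, and none passed. Shcbp1, whose product acts at the midbody in cytokinesis, was 10.27, 10.37 and 10.62 in fast-cycling tumours, against 9.38, 9.66 and 9.96 in slow-cycling ones, with no overlap. Its difference was 0.75 ± 0.14 (unadjusted p = 7.47e-05, adjusted p = 0.598), and it rose with the continuous score (slope 0.99 ± 0.21, adjusted p = 0.0366). Depdc1a, a mitotic gene, differed by 0.85 ± 0.18 and rose with the score (adjusted p = 0.0139). Hoxc4, a homeobox gene, was 3.65 to 4.83 in fast-cycling tumours, against 2.92 to 3.46 in slow-cycling ones, near the bottom of the signal range. Hlx, another homeobox gene, was 8.25 to 9.50 in fast-cycling and 8.03 to 8.48 in slow-cycling tumours. Neither passed in the continuous fit (adjusted p = 0.110 and 0.0631).

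On the lower side the 5 genes were Glrb, Ccdc149, Dnaaf2, Lce1a1 and Enpp4. Glrb, the glycine receptor beta subunit, was 5.27, 5.61 and 6.21 in fast-cycling tumours, against 5.99, 6.64 and 6.89 in slow-cycling ones, with a difference of -0.95 ± 0.18 (adjusted p = 0.598). The other 4 had differences from -0.91 (Ccdc149) to -0.62 (Enpp4), and all 5 had slopes that did not pass, with adjusted p between 0.184 and 0.484. Over all genes, 21 had every fast-cycling tumour above every slow-cycling one (0.108% of genes tested), and 14 of the 21 were in the cell cycle lists. These lists hold 288 of the 19498 genes tested. A mitotic score from the same arrays set the classes, which favours genes of the cell cycle here. The reverse held for 1 gene (0.00513%): Lat, an adaptor of the T cell receptor, at 5.90 to 6.41 in fast-cycling tumours, against 6.43 to 8.20 in slow-cycling ones. Lat was named after its values were seen, and its slope did not pass (adjusted p = 0.196).

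Of the 48 genes that rose with the score, 32 were in the cell cycle lists, which hold 288 of the 19498 genes tested, and 16 were not. Dlgap5, which stabilises kinetochore fibres, rose by 1.26 ± 0.17 per unit (adjusted p = 0.0019), and Cit, the citron kinase of the midbody, by 1.38 ± 0.21 (adjusted p = 0.0052). Knstrn and Spag5, which encode the partner proteins kinastrin and astrin of the spindle, rose by 1.00 ± 0.19 and 1.10 ± 0.24. Others were Troap, Diaph3 and Iqgap3, linked to the cytoskeleton, Ndc1 of the nuclear pore, the DNA glycosylase gene Neil3 and the helicase gene Pif1. Nr1d1, encoding the circadian repressor REV-ERB alpha, rose by 1.63 ± 0.30 (adjusted p = 0.0139), with values of 10.62 to 12.19 in fast-cycling and 10.22 to 11.40 in slow-cycling tumours. The last 3, Plekhf1, Lingo2 and AW551984, rose by 1.10, 1.77 and 2.21 per unit. These genes outside the 12 with the smallest p were named after their values were seen.

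The 14 genes that fell with the score included 0 from the cell cycle lists. Without control tumour 6, 0 of them were called, and without hydroxychloroquine tumour 4 only 1 was, Adgrg7. Tgm2, tissue transglutaminase, was 10.14, 11.17 and 11.80 in fast-cycling tumours, against 11.73, 12.25 and 12.88 in slow-cycling ones, and fell by 1.49 ± 0.29 per unit (adjusted p = 0.0234). Fgfr2, the fibroblast growth factor receptor found on epithelium, was 5.86, 7.73 and 8.85 in fast-cycling tumours, against 7.88, 8.83 and 9.39 in slow-cycling ones, and fell by 1.90 ± 0.37 (adjusted p = 0.0213). Muc13, an epithelial membrane mucin, was 5.80 to 7.14 in fast-cycling and 6.78 to 8.73 in slow-cycling tumours and fell by 2.04 ± 0.43 (adjusted p = 0.0366). Adgrg7, an adhesion receptor gene, fell by 3.91 ± 0.79 (adjusted p = 0.0312), with values of 5.62 to 7.77 in fast-cycling and 6.19 to 10.19 in slow-cycling tumours.

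Sesn3, a stress-induced gene and FOXO target that restrains mTORC1, was 9.24, 10.22 and 10.58 in fast-cycling tumours, against 10.43, 10.74 and 11.19 in slow-cycling ones, and fell by 1.16 ± 0.25 (adjusted p = 0.0374). Spns2, a sphingosine-1-phosphate exporter, and Prkcz, an atypical protein kinase C of epithelial polarity, fell with the score, with slopes of -1.85 ± 0.39 and -2.18 ± 0.47 (adjusted p = 0.0374 and 0.0403). Chordc1, a partner of the chaperone HSP90, fell by 0.90 ± 0.18 (adjusted p = 0.0348). Fbxw4, Msl2 (a chromatin ubiquitin ligase), Ppil4 and Ncbp2 (a cap-binding subunit) fell by between 0.82 and 0.90 per unit.

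**Figure D3:**
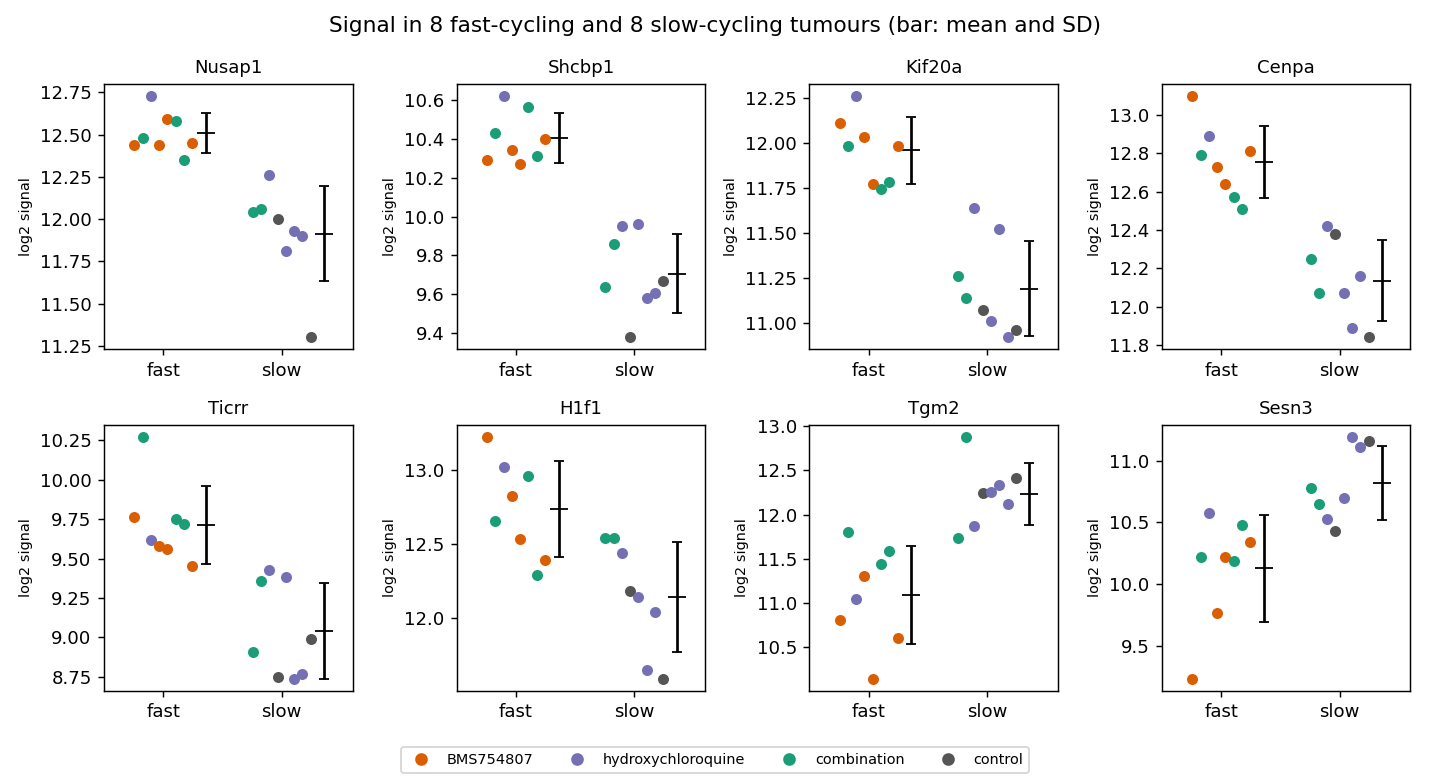
log2 signal of 8 genes in each of the 8 fast-cycling and 8 slow-cycling tumours, coloured by treatment, with the class mean and SD beside the points. Nusap1, Shcbp1, Kif20a, Cenpa and Ticrr show no overlap between classes, H1f1 overlaps, and Tgm2 and Sesn3 lie lower in fast-cycling tumours with a small overlap.

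Growth and stress pathways outside the cell cycle showed small shifts. Among IGF and insulin axis genes, the target of BMS754807, 10 of 19 were higher and the median difference was 0.05. Igf1r was 11.47 to 12.08 in fast-cycling tumours, against 11.01 to 12 in slow-cycling ones, with a difference of -0.01 ± 0.21. Insr, encoding the insulin receptor, differed by -0.05 ± 0.18 and Irs2, their adaptor, by 0.40 ± 0.37 (0.15 within combination tumours). The signs for Igf1r and Insr turned in other settings of the analysis. Igf2r, which clears IGF2, differed by 0.32 ± 0.14, but by 0.13 within combination and 0.62 within hydroxychloroquine tumours. Igfbp5, an IGF-binding protein gene, differed by -0.72 ± 0.33. In the FOXO and insulin-repressed list 9 of 14 were higher, with a median of 0.13. That median was 0.28 in combination and -0.26 in hydroxychloroquine tumours, and 0.02 without combination tumour 4. Foxo3 differed by 0.56 ± 0.23 (0.32 within combination tumours) and Cited2 by 0.56 ± 0.26, and 1 member, Sesn3 above, fell with the score.

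Among autophagy genes 15 of 27 were higher, the median was 0.04 (-0.03 in combination and 0.04 in hydroxychloroquine tumours) and 0 had an unadjusted p under 0.05. Map1lc3b, encoding the autophagosome protein LC3B, was 13.76 to 14.20 in fast-cycling tumours, against 13.49 to 14.27 in slow-cycling ones, with a difference of -0.12 ± 0.17. Sqstm1, the cargo receptor p62, differed by 0.23 ± 0.23, and by 0.005 within combination tumours. Lysosome genes were higher for 17 of 18 by a median of 0.17. Ctsb, the protease cathepsin B, differed by 0.27 ± 0.14 (0.15 within combination tumours), and Neu1, a lysosomal sialidase gene, by -0.37 ± 0.16.

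MYC and ribosome biogenesis genes were lower for 16 of 24, with a median of -0.12, which was -0.02 in combination and -0.20 in hydroxychloroquine tumours, and their slopes were above 0 for 3 of 24. Myc itself was 13.56 to 14.09 in fast-cycling tumours, against 13.13 to 13.96 in slow-cycling ones, with a difference of 0.15 ± 0.18, and the ribosome assembly gene Nle1 differed by -0.63 ± 0.23. Cholesterol synthesis genes were higher for 16 of 18, with a median of 0.26 and 0 genes at an unadjusted p under 0.05. Mvk and Msmo1, enzymes of that pathway, differed by 0.61 ± 0.30 and 0.56 ± 0.43. The median for this list was 0.42 in combination tumours and 0.08 in hydroxychloroquine tumours.

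The p53 target, fatty acid synthesis, glycolysis, respiratory chain and endoplasmic reticulum stress lists had medians between -0.06 and 0.12. Within combination tumours fatty acid synthesis was at 0.15 and p53 targets at 0.05, against -0.06 and -0.01 over both treatments, and glycolysis was at 0.03. In these lists Phlda3, a p53 target, differed by -0.51 ± 0.24, Adm, a hypoxia-inducible peptide gene, by 1.24 ± 0.60 (0.57 within combination and 2.25 within hydroxychloroquine tumours) and Cyc1, of respiratory complex III, by -0.41 ± 0.15. Immediate-early genes, which answer growth signals within minutes, had a median of 0.22, which was 0.00 in combination and 0.49 in hydroxychloroquine tumours, so that it rested on 1 tumour. In this list 4 of 16 genes had an unadjusted p under 0.05, all higher, against 3.5% of all genes tested. Egr3, Egr2 and Fosb differed by 0.84 ± 0.32, 0.95 ± 0.39 and 0.82 ± 0.35 (1.02, 0.61 and 0.55 within combination tumours), and none passed in the continuous fit. Interferon-stimulated genes had a median of 0.21, which was -0.01 in combination and 0.74 in hydroxychloroquine tumours.

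Markers of other cell types were set beside these results. No member of any cell type list passed in the class comparison or the continuous fit. Epithelial and ductal markers were lower in fast-cycling tumours for 16 of 19, with a median of -0.63, which was -0.31 in combination and -1.0 in hydroxychloroquine tumours. Muc1, a ductal mucin, was 12.08, 13.87 and 15.82 in fast-cycling tumours, against 14.05, 14.87 and 15.87 in slow-cycling ones (difference -1.39 ± 0.71, and -0.63 within combination tumours). Cldn3 and Cldn7, tight junction genes, differed by -1.16 ± 0.58 and -0.94 ± 0.51 (-0.70 and -0.90 within combination tumours). Epithelial scores by tumour ran from -1.11 to 0.99 in fast-cycling and from -0.81 to 0.87 in slow-cycling tumours, so the classes covered the same range.

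Stromal lists had positive medians that rested on 1 tumour. Fibroblast and matrix markers were higher for 17 of 18, with a median of 0.50, endothelial markers for 15 of 16 (0.39), pericyte and smooth muscle markers for 9 of 11 (0.36) and macrophage markers for 13 of 15 (0.60). In combination tumours alone these medians were -0.13, -0.24, 0.09 and 0.17. In hydroxychloroquine tumours they were 1.56, 1.31, 1.09 and 1.24. Without hydroxychloroquine tumour 4 the fibroblast and endothelial medians were below 0, and the pericyte and macrophage medians shrank but stayed above 0. In the continuous fit slopes were above 0 for 18 of 18 fibroblast and 15 of 16 endothelial markers. They were above 0 for 11 of 11 pericyte and 14 of 15 macrophage markers, and none passed. Hydroxychloroquine tumour 4 had the highest fibroblast score of all 24. Mrc1, a macrophage lectin gene, had the smallest p among these lists, at 12.89, 13.64 and 14.31 in fast-cycling tumours, against 12.25, 13.02 and 14.34 in slow-cycling ones (difference 0.82 ± 0.28, and 0.48 within combination tumours). Mertk, a receptor for apoptotic cells, differed by 0.92 ± 0.36, and Cdh5, the endothelial cadherin, by 0.95 ± 0.55 (0.14 within combination tumours).

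The mitotic lists were above 0 within both treatments. Their medians in combination tumours were 0.42 (spindle), 0.36 (kinetochore), 0.30 (checkpoint) and 0.20 (condensin), and in hydroxychloroquine tumours 0.73, 0.68, 0.54 and 0.15. This was not particular to them. In combination and hydroxychloroquine tumours the medians were 0.34 and 0.25 for replication origin genes and 0.26 and 0.12 for fork genes. They were 0.42 and 0.08 for cholesterol synthesis, 0.12 and 0.29 for lysosome genes and 0.17 and 1.24 for macrophage markers. All 62 genes called with the continuous score had the same sign within both treatments. The same tumours took part in the fit that called these genes, so this is no separate check.

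Adipocyte markers were lower for 13 of 13, with a median of -1.25, and within treatments it was -1.53 in combination and -1.36 in hydroxychloroquine tumours. Adipoq, the adipocyte hormone adiponectin, was 2.47, 7.23 and 14.18 in fast-cycling tumours, against 3.92, 8.14 and 11.23 in slow-cycling ones, and the difference of -3.59 ± 1.93 was within the spread between tumours (adjusted p = 0.861). The highest adipocyte score of all 24 belonged to a fast-cycling tumour, BMS754807 tumour 6. Skeletal muscle markers spanned the array in both classes: Myh4, a fast myosin, ran between 3.85 and 15.40 in fast-cycling and between 3.75 and 16.22 in slow-cycling tumours. Their median difference was -0.24, and it was 1.24 in combination and -2.85 in hydroxychloroquine tumours.

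Lymphoid and antigen presentation lists were mostly lower. B and plasma cell markers were lower for 11 of 11 (median -0.72, and -1.11 in combination tumours), MHC class II genes for 7 of 7 (-0.68) and T cell markers for 10 of 13 (-0.43). B cell scores were below 0 in most tumours, and the 2 highest lay in opposite classes (BMS754807 tumour 5 at 2.12 and hydroxychloroquine tumour 1 at 3.34). Tnfrsf17, the plasma cell receptor BCMA, differed by -0.51 ± 0.22. The class II median was -1.28 in combination and 0.12 in hydroxychloroquine tumours, with H2-DMb1, a peptide-loading gene, at -1.19 ± 0.59 (-1.88 within combination tumours). Neutrophil, dendritic cell, NK, erythroid, nerve, acinar and islet, and EMT lists had medians between -0.10 and 0.18, and several of these were not stable. NK and cytotoxic markers were at -0.22 in combination and 0.78 in hydroxychloroquine tumours, dendritic cell markers at -0.31 and 0.38, neutrophil markers at -0.18 and 0.33, and the EMT list at 0.02 and 0.29. With the epithelial score as a covariate the mitotic list medians were 0.52 (spindle), 0.46 (kinetochore), 0.33 (checkpoint) and 0.23 (condensin), and with the skeletal muscle score 0.51, 0.44, 0.40 and 0.17. With the epithelial score the replication-dependent histone median was 0.01, against 0.26 without it. The replication origin and fork medians were then 0.223 and 0.215. The part of the other cell types in the mitotic results was not tested.

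**Figure D4:**
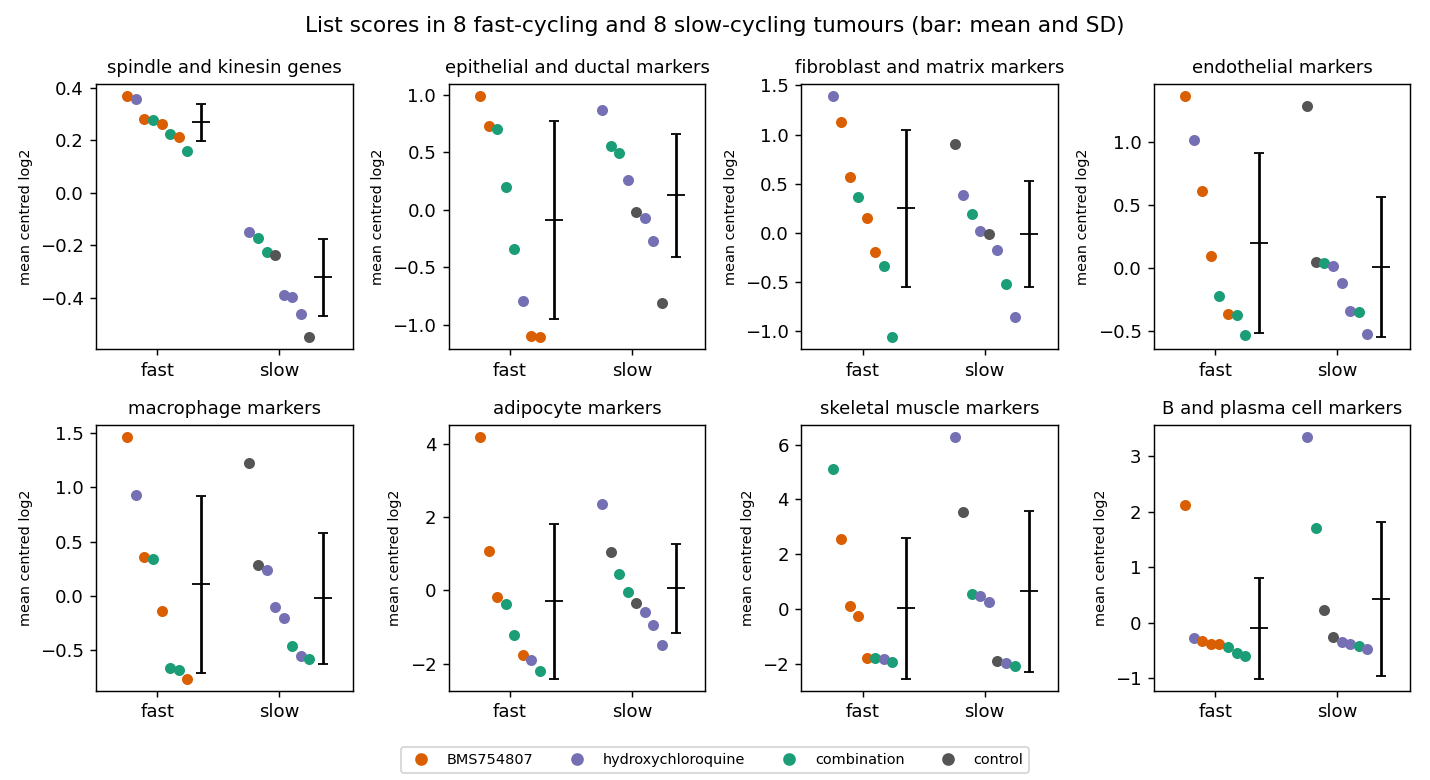
Mean centred log2 signal of 8 marker lists in each of the 8 fast-cycling and 8 slow-cycling tumours, coloured by treatment, with class mean and SD beside the points. The spindle list separates the classes (0.16 to 0.37 in fast-cycling and -0.55 to -0.15 in slow-cycling tumours), while the 7 cell type lists cover overlapping ranges.

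**Figure D5:**
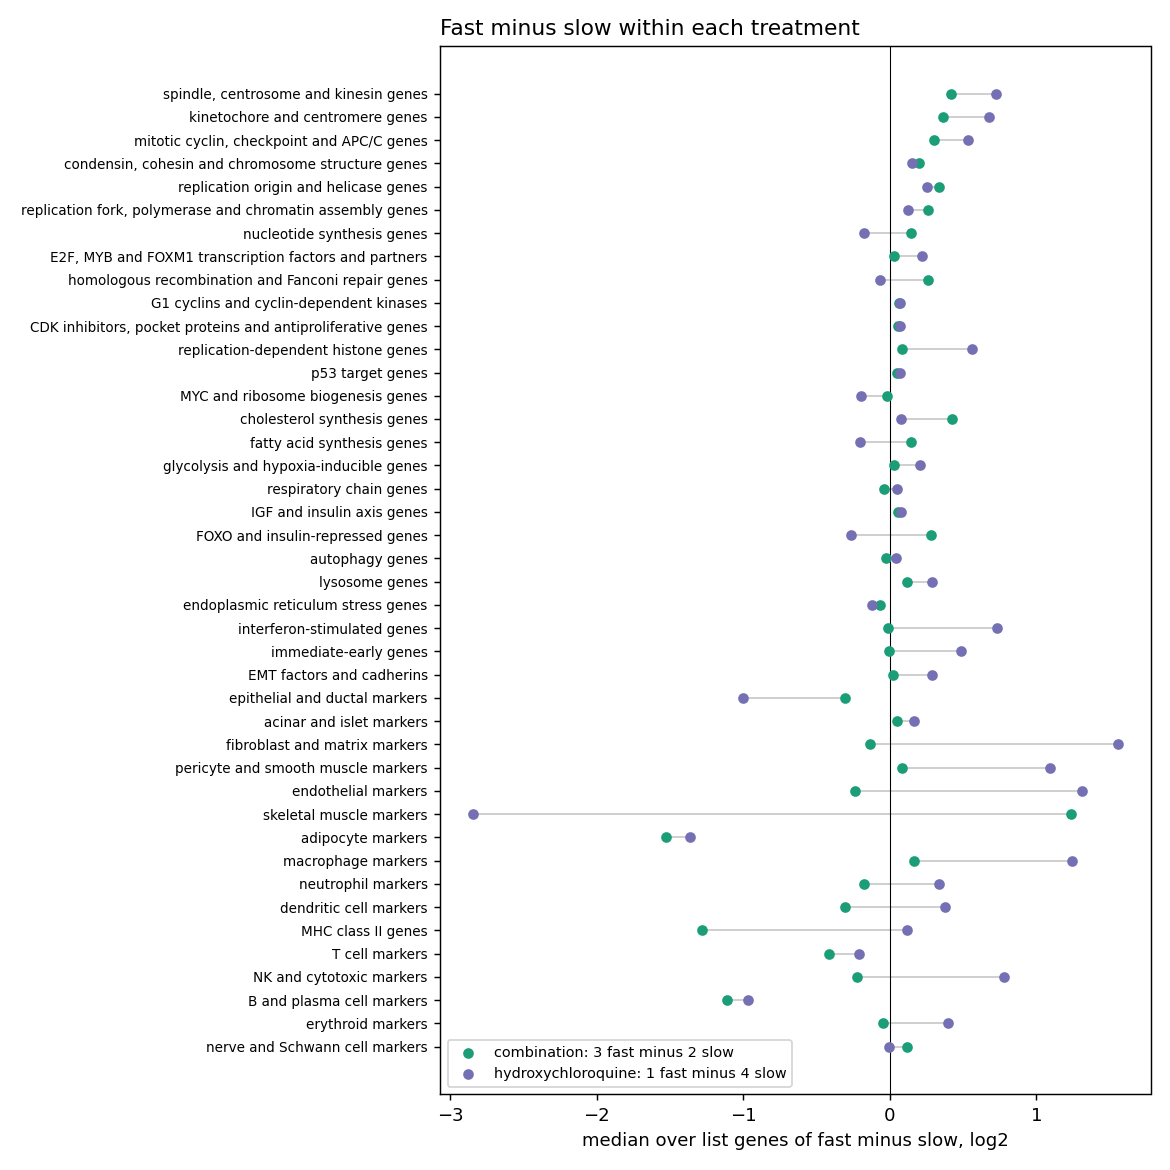
Median over each list of the fast minus slow difference in log2 signal, within combination tumours (3 fast, 2 slow) and within hydroxychloroquine tumours (1 fast, 4 slow). The spindle, kinetochore and checkpoint lists lie right of 0 in both treatments, as do several others such as the replication origin and lysosome lists. Fibroblast, endothelial and skeletal muscle lists lie on opposite sides.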

How the data were processed

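Total RNA of 24 tumours was hybridised to Clariom S arrays, per the labels' protocols. The deposited log2 values, 1 per probe set and tumour, were made by the authors with Transcriptome Analysis Console 4.0, per the submitters' processing notes. That they are on a log2 scale was taken from their range; the log base and the normalization method are not given in the sources used here. Of 22206 probe sets, 19572 carried 1 gene symbol in the platform annotation and 2634 none. For genes with several, the probe set with the highest mean was kept, which left 19505 genes, of which 19498 were tested after the 7 score genes were set aside. Array medians ran from 6.79 to 7.03 in fast-cycling and from 6.89 to 7.01 in slow-cycling tumours, and precision depends on how many arrays there are.

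The score is the mean of 7 centred log2 values; Ccnb1 had no named probe set. Classes were the highest 8 and lowest 8 of 24. limma 3.58.1 (R 4.3.3; lmFit and eBayes) fitted class plus treatment on 16 tumours (11 residual degrees of freedom), and the score plus treatment on 24 (19 residual degrees of freedom), with Benjamini-Hochberg adjustment over all genes tested and a threshold of 0.05. The scripts were tested on simulated data. The members, the 42 gene lists (738 of 803 listed symbols measured) and the tests were chosen with earlier results of these data known. Named genes were the 5 smallest p-values in each direction of the class comparison, 12 in each direction of the continuous fit, the 3 smallest per list, the score genes and a few fixed genes, passing over predicted, olfactory, vomeronasal, immunoglobulin and T cell receptor genes. For same-numbered tumours of different treatments the median correlation of deviations was -0.01 (36 pairs, 9 over 0.1), against 0.004 for 180 pairs with different numbers. Replicate numbers were therefore not taken as pairs, though a median cannot exclude a shared factor in some of them. Alternatives changed the class size, the treatment term, the normalization, the low-signal filter, the variance model, a covariate for tissue, or left out 1 tumour. Promoters are RefSeq sequences of build GRCm38.p6, matched by symbol, 1 per gene.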

Additional observations from a re-analysis of the deposited data

Results flagged for a closer look

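A tumour stood far from the other 7 of its class in 40 of 422 checks of a gene or list score (Dixon's criterion for 8 values), where chance gives about 1 in 20. Values are log2 signals, or mean centred log2 signals for lists, with the range of the other 7 in brackets where it helps.

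In fast-cycling tumours, hydroxychloroquine tumour 4 was high for Acta2 at 15.7 (others 14.1 to 14.8), Igf2r at 12.6 (11.8 to 12.2) and Cd28 at 5.18 (3.68 to 4.31). BMS754807 tumour 5 was high for the B cell genes Cd79b at 7.82 (3.08 to 3.67) and Cr2 at 5.82 (3.03 to 3.54), and its B and plasma cell score was 2.12 (-0.607 to -0.279). BMS754807 tumour 6, the highest scorer, was low for Mastl at 10.8 (11.2 to 11.5) and had an interferon-stimulated gene score of 1.19 (-0.564 to 0.211). BMS754807 tumour 3 was low for Atg9a at 10.4. Combination tumour 2 was high for Ticrr at 10.3, and combination tumour 3 low for Uhrf1 at 11.8.

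In slow-cycling tumours, control tumour 6, the lowest scorer, was low for Bub1 at 10.1 (10.5 to 10.8), Nusap1 at 11.3 (11.8 to 12.3) and Cit at 7.25 (7.93 to 8.43), and high for Ifih1 at 10.9. Control tumour 5 was high for the endothelial and perivascular genes Cdh5 at 13.3 (10.2 to 11.1) and Mcam at 11.9 (8.6 to 9.86), for Pdpn at 12, Trem2 at 9.36, Egr2 at 10.1 and Tfe3 at 10.9. It was low for Fanci at 6.37 and Mycn at 8.53. Its endothelial score was 1.28 (-0.522 to 0.0495), its neutrophil score 1.29, its lysosome score 0.366 and its nerve and Schwann cell score -0.389.

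Hydroxychloroquine tumour 1 was high for Cr2 at 7.89 (3.53 to 5.22), Blm at 9.82 and Msmo1 at 12.7, and low for Ncam1 at 13.3, Ptprb at 8.82 and Ulk2 at 10.5. Its T cell score was 1.76 (-0.383 to 0.52) and its fatty acid synthesis score 0.726. Hydroxychloroquine tumour 5 was high for Cenpu at 8.81 and Gzmb at 6.63, and hydroxychloroquine tumour 3 for Cdk2 at 11.7. Combination tumour 6 was high for Ccdc149 at 7.44 and low for Klf1 at 2.41.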

How the results depend on the processing

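The class comparison called 0 genes at an adjusted p under 0.05 in limma (1140 at an unadjusted p under 0.05), and 0 under every alternative but 4. It called 12 without the treatment term (8 of them also called with the continuous score) and 62 with the continuous score. It called 139 with that score and no treatment term, and 137 with that score, treatment and a replicate block. Where 0 genes were called, the distance from the threshold depended on the setting. The smallest adjusted p was 0.598 in the main fit and 0.0899 with the middle 8 tumours as a class of their own. It was 0.143 with the highest 12 against the lowest 12, and 0.873 with a trended, robust variance model. It was also lower without control tumour 5 or 6, which have 0 weight in the difference and only set the spread. That fit holds 1 control tumour. Leaving out each of 16 tumours in turn gave 0 calls each time, with 558 to 1368 genes at an unadjusted p under 0.05. The continuous score called between 16 and 72 genes when each of 24 tumours was left out. This check was added after the data were seen, as were the continuous fits without treatment or with a replicate block and the fit on hydroxychloroquine and combination tumours only. The replicate block in the class comparison also gave 0 calls (1473 at an unadjusted p under 0.05). The labels do not say what the replicate numbers stand for, and they were not taken as pairs.

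Of 162 named genes, 23 changed sign in at least 1 of 16 settings that left out no tumour, none past the threshold there, and the cause was not tested. Without the treatment term the sign turned for Acaca (0.0287), Ddit3 (-0.144), Epor (0.0275) and Igf1r (0.0263). With the continuous score and a replicate block the sign turned for Ccne2 (-0.107), Epor (0.323), H2-DMa (0.105), Insr (0.159), Klf1 (-0.125), Map1lc3b (0.158), Myh4 (0.0614), Ndufb5 (0.00576) and Tnnt3 (0.391). With the highest 6 against the lowest 6 tumours the sign turned for Cdkn1b (-0.112), Clec9a (0.428), Clps (-0.0075), Gbp2 (0.765) and H2-Eb1 (0.118). With the replicate block in the class comparison the sign turned for Cdkn1b (-0.003), Insr (0.035) and Map1lc3b (0.036). With the continuous score and no treatment term the sign turned for Ddit3 (-0.093), Epor (0.35), Ifih1 (-0.0407), Igf1r (0.0671), Insr (0.0717), Klf1 (-0.0763), Mx1 (-0.0914), Myh4 (0.00455), Ndufb5 (0.0249), Ngfr (-0.00369), Tnnt3 (0.202) and Twist1 (0.0204). With the continuous score and treatment (per unit of score) the sign turned for Elovl1 (-0.023), Epor (0.292), Ifih1 (-0.0586), Igf1r (0.0513), Insr (0.134), Klf1 (-0.0798) and Map1lc3b (0.0337). With the highest 12 against the lowest 12 the sign turned for Elovl1 (-0.052), Ifih1 (-0.0547), Igf1r (0.124), Insr (0.0537), Klf1 (-0.11) and Myc (-0.0373). With the middle 8 tumours as a class of their own the sign turned for Igf1r (0.0106). With array weights the sign turned for Igf1r (0.0543). After a second quantile normalization the sign turned for Igf1r (0.00819). With the epithelial score as a covariate the sign turned for Igf1r (0.0953). Leaving out 1 tumour turned the sign of 13 genes, with these ranges: Acaca (-0.408 to 0.287), Cdh19 (-0.852 to 0.155), Cdkn2a (-1.47 to 0.0583), Ddit3 (-0.112 to 0.625), Igf1r (-0.177 to 0.113), Insr (-0.118 to 0.06), Myh4 (-4.58 to 0.412), Ncam1 (-0.02 to 0.272), Neb (-2.88 to 0.672), Pdpn (-0.0417 to 1.63), Ptprb (-0.025 to 0.606), Retnlg (-0.482 to 0.784) and Tnnt3 (-3.73 to 1.11). The named genes of the 4 mitotic lists kept their sign in all settings run. They were chosen by a small p on these same tumours, so this was largely set in advance and does not measure stability. The small number of arrays and the narrow score range limit the size of difference that can be called.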
